A study of Mus musculus with 4 samples.

Results

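The genes described here encode the constitutive proteasome and its activators, the set of subunits that nearly every cell uses to degrade proteins. Members were the rows of the deposited count table whose symbol begins with Psma, Psmb, Psmc, Psmd or Psme and a digit, without the immunoproteasome genes Psmb8, Psmb9 and Psmb10 and without rows with pseudogene names in -ps. The rule gave 43 genes of 19044 rows. Of these, 38 reached a mean of 5 CPM (read counts scaled to a common library total, with TMM factors) over the libraries and were tested, and 5 did not. The rule reads names, so it also took in Psmc3ip, a meiotic recombination protein, and Psme3ip1, which binds the activator PA28γ. Neither is a proteasome subunit.

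Messenger RNA was sequenced from untreated Treg cells, the regulatory CD4 T cells that are marked by Foxp3 and hold back immune responses, of mouse spleen and peripheral lymph nodes. The mice labelled knockout were Ripk1fl/fl Foxp3-YFP-Cre, in which Cre is made where Foxp3 is expressed and the Ripk1 gene carries loxP sites. The wild-type (WT) mice were Foxp3-YFP-Cre, so both genotypes carry the Cre and the yellow fluorescent protein. Each genotype gave 1 aTreg and 1 rTreg library, by convention activated and resting Treg cells, so there were 4 libraries and no replicate of any group. The sorting gate, the number, age and sex of the mice, and whether mice were pooled are not stated.

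The label and the libraries need a caution before any result. Ripk1 was at 84.7 CPM in rTreg labelled knockout against 83.6 CPM in WT rTreg, and at 80.8 CPM in aTreg labelled knockout against 77.5 CPM in WT aTreg (edgeR adjusted p = 0.675). The counts over the whole gene, a weak check where only some exons are removed, show no loss, so these libraries are called KO-labelled, also wherever a direction is drawn from them. Xist, transcribed in female cells, was at 0.284 and 0.213 CPM in the KO-labelled rTreg and aTreg libraries, against 299 and 338 CPM in the WT rTreg and aTreg libraries, while the Y-linked gene Ddx3y was between 97.5 and 126 CPM in all 4. The sex make-up of the samples thus moved with the genotype label, and sex and genotype cannot be told apart here. Foxp3 was between 619 and 694 CPM in the 4 libraries. Total counts ran from 17588754 to 20868319 per library. In such bulk samples a change in the make-up of the cells and a change in RNA per cell cannot be told apart.

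As background, the proteasome is a barrel, the 20S core, capped by regulators. Its outer α rings (Psma genes) gate the entrance, and its inner β rings (Psmb genes) hold the cutting sites, of which Psmb5 has the chymotrypsin-like, Psmb6 the caspase-like and Psmb7 the trypsin-like activity. The 19S cap has a base, with a ring of ATPases (Psmc genes) that unfolds substrates, and a lid, which removes ubiquitin, both completed by Psmd genes. PA28 (Psme1 and Psme2, or Psme3) and PA200 (Psme4) are other caps. In lymphocytes and under interferon-γ, Psmb8, Psmb9 and Psmb10 can replace Psmb5, Psmb6 and Psmb7 in newly built cores.

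Most constitutive subunit genes had higher levels with the KO label, in both states and by a modest fold. The members together took 0.459% and 0.458% of all counts in KO-labelled rTreg and aTreg, against 0.349% and 0.346% in WT rTreg and aTreg. Of the 38 tested members, 30 rose, 1 fell and 7 were not called by edgeR's quasi-likelihood test with state as an additive term (Benjamini-Hochberg adjusted p under 0.05 over 9680 genes). Across all tested genes that test called 47.4%, with 24.5% higher and 22.9% lower, so the members' 78.9% called higher stands beside a background in which nearly as many genes are called as not. The median log2 fold change of the tested members was 0.38, which is 1.30-fold, against 0.00 for all tested genes. Both KO-labelled libraries lay above both WT libraries for 35 of the 38 members, against 33.2% of all tested genes, and Psmb5 was the 1 member with both below. The p-values rest on the departure of these 4 libraries from the additive fit, drawn toward that of other genes. They do not measure the spread between mice.

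**Figure D1:**
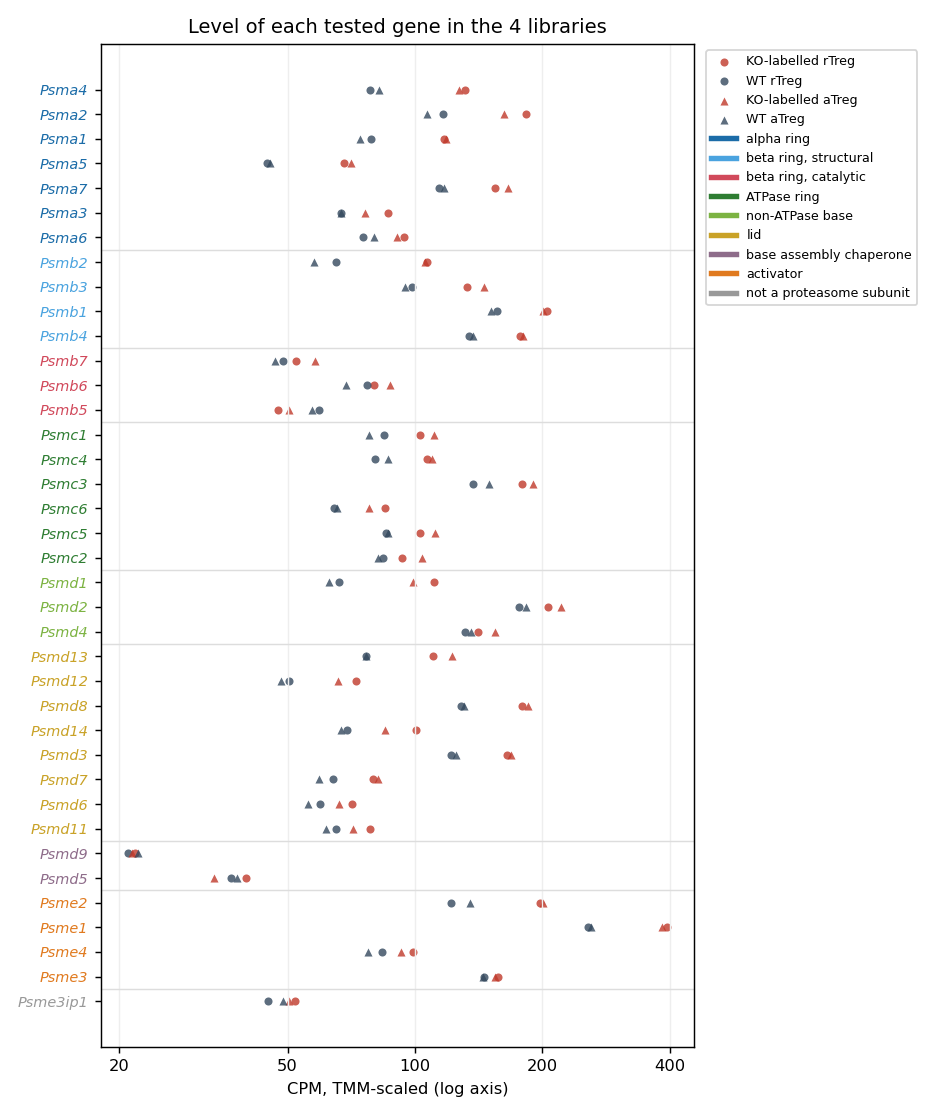
Level of each tested gene in the 4 libraries, in TMM-scaled CPM on a log axis, with KO-labelled libraries in red, WT libraries in dark blue, circles for rTreg and triangles for aTreg; genes are grouped by subunit class. Red symbols lie right of blue ones for 35 of 38 genes, the exceptions being Psmb5, Psmd5 and Psmd9.

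Taken state by state, the genotype ratios had a median log2 value of 0.39 in rTreg and 0.36 in aTreg. In rTreg, 21 members were at least 0.3219 log2 units higher in the KO-labelled library, beside 19.7% of all tested genes, and 1 was at least that much lower, beside 17.3%. In aTreg, 24 were higher, beside 21% of all tested genes, and 0 were lower, beside 19.8%. These are single libraries and carry no test. Across the 38 members the ratios in rTreg and in aTreg correlated at r = 0.833, beside 0.868 across all tested genes. The points of a state share 2 libraries, and genes are not independent replicates.

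The α ring of the core had the highest class median. All 7 of its genes rose, against 5 with DESeq2 and 5 in edgeR with genotype alone, which leave out Psma3 and Psma6. The median log2 fold change was 0.62, and the summed level was 834 CPM in KO-labelled rTreg against 575 CPM in WT rTreg, and 811 CPM in KO-labelled aTreg against 572 CPM in WT aTreg. Psma4 (GRCm38 chromosome 9, 54950790 to 54958030, plus strand) had 131 CPM in KO-labelled rTreg against 78.2 CPM in WT rTreg, and 127 CPM in KO-labelled aTreg against 82.0 CPM in WT aTreg. The groups did not overlap, and the change was 1.61-fold (log2 fold change 0.69, SE 0.0690, adjusted p = 5.52e-06). Psma2, Psma1 and Psma5 were close behind, at 0.63, 0.62 and 0.62 on the log2 scale. The smallest change of the ring was that of Psma6, with 94.0 CPM in KO-labelled rTreg against 75.2 CPM in WT rTreg, and 90.8 CPM in KO-labelled aTreg against 79.9 CPM in WT aTreg (log2 fold change 0.25, SE 0.0724, edgeR adjusted p = 0.0120, but 0.0994 with genotype alone and 0.165 with DESeq2). The 7 changes of the ring thus ran from 0.25 to 0.69 on the log2 scale. Each core holds the α proteins in equal number, but these are RNA changes and protein was not measured.

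In the β ring the 4 genes without an active site all rose (median log2 fold change 0.46). Of the 3 catalytic genes none was called higher and 1 was called lower. The other 2 had positive log2 fold changes that were not called. The difference between these classes was not tested. Psmb2 (chromosome 4, 126677630 to 126709714, plus strand) had the largest change of all members. It was at 107 CPM in KO-labelled rTreg against 65.0 CPM in WT rTreg, and at 106 CPM in KO-labelled aTreg against 57.7 CPM in WT aTreg, a 1.74-fold change (log2 fold change 0.80, SE 0.0739, edgeR adjusted p = 3.07e-06). Psmb3 (0.53), Psmb1 (0.40) and Psmb4 (0.40) followed on the log2 scale. Psmb4, the smallest change of this class, had 177 CPM in KO-labelled rTreg against 134 CPM in WT rTreg, and 180 CPM in KO-labelled aTreg against 137 CPM in WT aTreg.

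Psmb5, the chymotrypsin-like subunit and the main target of bortezomib (chromosome 14, 54614119 to 54618022, minus strand), went the other way. It had 47.4 CPM in KO-labelled rTreg against 59.3 CPM in WT rTreg, and 50.3 CPM in KO-labelled aTreg against 57.0 CPM in WT aTreg. Both KO-labelled values lay below both WT values, and the log2 ratio was −0.32 (95% counting interval −0.45 to −0.20) in rTreg and −0.18 (−0.31 to −0.06) in aTreg. The additive test called it lower (log2 fold change −0.25, SE 0.0831, edgeR adjusted p = 0.0242). The call was lost with no filter on low genes (adjusted p = 0.0710), with genotype alone in edgeR (0.117) and with DESeq2 (0.225). Of the 50-base stretches of its exons, 57.1% also occur elsewhere in the annotated transcripts, mostly in the predicted gene Gm3375, so the counting of its reads is uncertain.

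The 2 other catalytic genes were not called (edgeR adjusted p = 0.0622 for each, close to the limit of 0.05). The fitted log2 fold change was 0.20 for Psmb6 (SE 0.0826) and 0.21 for Psmb7 (SE 0.0872). For Psmb6 the adjusted p was 0.227 with genotype alone in edgeR and 0.338 with DESeq2. For Psmb7 it was 0.193 and 0.366 in the same order. Psmb6, the caspase-like subunit, had 79.9 CPM in KO-labelled rTreg against 77.1 CPM in WT rTreg, and 87.5 CPM in KO-labelled aTreg against 68.7 CPM in WT aTreg. Its log2 ratio was 0.05 (counting interval −0.05 to 0.16) in rTreg and 0.35 (0.25 to 0.45) in aTreg. Psmb7, the trypsin-like subunit, had 52.2 CPM in KO-labelled rTreg against 48.7 CPM in WT rTreg, and 58.2 CPM in KO-labelled aTreg against 46.6 CPM in WT aTreg. For both genes the genotypes were close in rTreg and further apart in aTreg. The summed level of the 3 catalytic genes was 179.5 CPM in KO-labelled rTreg against 185 CPM in WT rTreg, and 196 CPM in KO-labelled aTreg against 172 CPM in WT aTreg, whereas the 4 inactive β genes summed to 622 CPM against 454 CPM in rTreg and to 632 CPM against 441 CPM in aTreg, KO-labelled against WT.

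Promoter windows of RefSeq (GRCm38.p6, from 250 bases before to 50 after a transcription start) matched 36 of the 43 member genes, in 40 windows. Psma8, Psmb1, Psmb2, Psmb7, Psmc3, Psmd3 and Psmd7 had no window and were not searched. The windows were searched on both strands for TGACNNNGC, the core of the antioxidant response element. NRF1 (Nfe2l1), the factor that raises subunit genes when the proteasome is inhibited, can bind this core. It was present for 6 member genes (Psmb5, Psmb6, Psmc6, Psmd12, Psmd9 and Psme4), in 15% of the 40 member windows, near the 12.4% of all 32851 windows, and for none of the 3 immunoproteasome genes. Of these 6, Psmc6, Psmd12 and Psme4 rose, Psmb5 fell, and Psmb6 and Psmd9 were not called. Promoters of the catalytic genes Psmb5 and Psmb6, which hold the motif, are shown beside that of Psma4, which led the α ring and does not. Each is the 250 bases before the start, 5′ to 3′ on the gene's strand, with the motif in capitals.
Psmb5 (chr14:54617996-54618245, minus strand): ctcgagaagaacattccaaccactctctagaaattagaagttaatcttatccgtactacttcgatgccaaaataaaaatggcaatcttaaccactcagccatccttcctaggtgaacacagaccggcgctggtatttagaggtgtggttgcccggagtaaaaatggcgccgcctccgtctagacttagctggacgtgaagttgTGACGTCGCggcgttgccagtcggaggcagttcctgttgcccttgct
Psmb6 (chr11:70525107-70525356, plus strand): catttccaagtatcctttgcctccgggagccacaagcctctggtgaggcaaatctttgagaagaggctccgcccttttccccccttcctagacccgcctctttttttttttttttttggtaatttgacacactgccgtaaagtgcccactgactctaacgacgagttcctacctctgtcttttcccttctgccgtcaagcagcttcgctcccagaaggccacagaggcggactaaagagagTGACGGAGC
Psma4 (chr9:54950609-54950858, plus strand): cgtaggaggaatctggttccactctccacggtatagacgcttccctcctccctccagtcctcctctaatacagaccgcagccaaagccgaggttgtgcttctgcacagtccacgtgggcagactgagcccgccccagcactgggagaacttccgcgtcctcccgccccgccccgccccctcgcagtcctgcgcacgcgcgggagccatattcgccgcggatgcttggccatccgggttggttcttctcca
The match lies 47 to 39 bases before the start in Psmb5 and 9 to 1 bases before it in Psmb6. A match describes letters in a window and not a bound site.

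**Figure D2:**
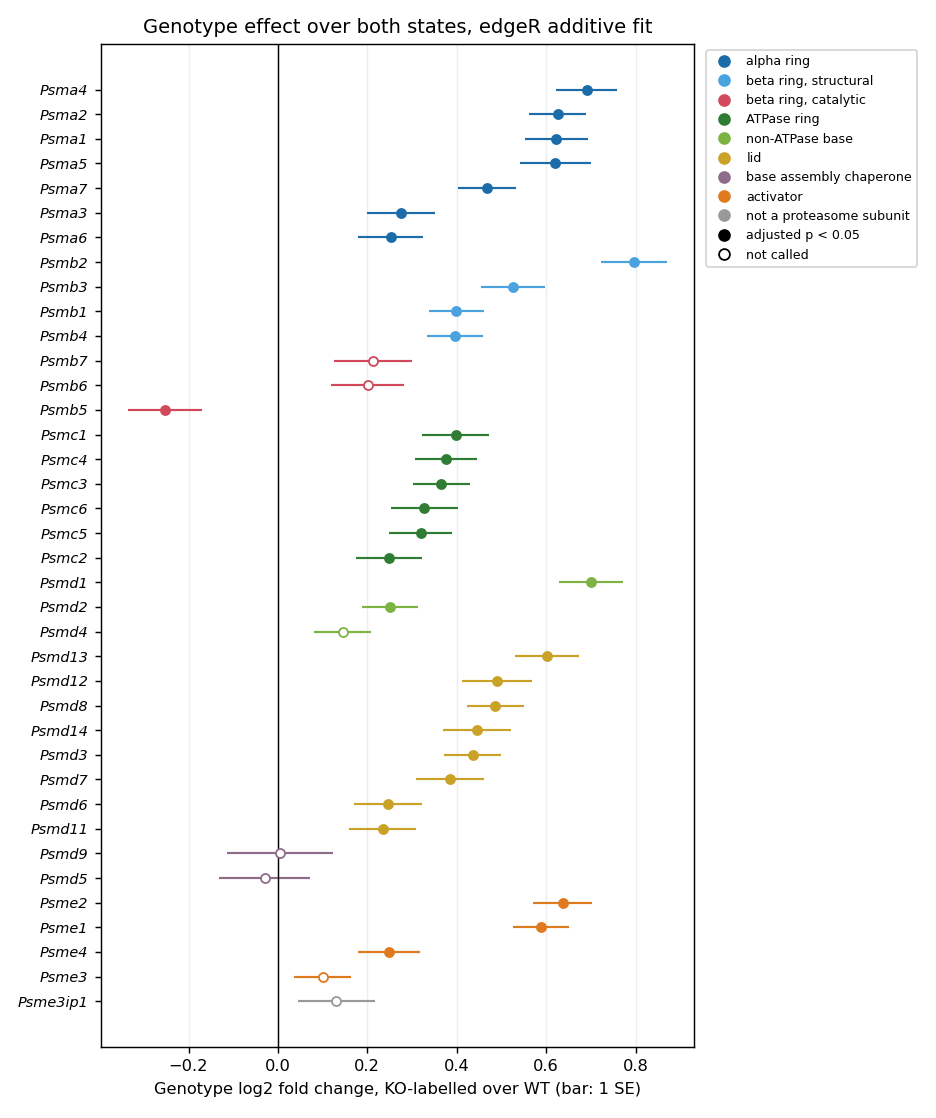
Genotype log2 fold change of each tested gene (KO-labelled over WT, edgeR additive fit), with a bar of 1 SE to each side; filled points had an adjusted p under 0.05, open points were not called. Points lie right of 0 for all genes but Psmb5 (−0.25) and Psmd5 (−0.03), and Psmd9, at 0.00, turns negative with other scalings.

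The immunoproteasome genes, which replace the catalytic members, all rose. Psmb9 was at 270 CPM in KO-labelled rTreg against 150.5 CPM in WT rTreg, and at 280 CPM in KO-labelled aTreg against 161 CPM in WT aTreg (log2 fold change 0.82, edgeR adjusted p = 5.56e-07), although its exons overlap those of Tap1 on the opposite strand and Tap1 rose too. Psmb10 had 195.4 CPM in KO-labelled rTreg against 132.5 in WT rTreg, and 203 CPM in KO-labelled aTreg against 150 in WT aTreg. Its log2 fold change was 0.50 (edgeR adjusted p = 4.78e-05). Psmb8 had 302.1 CPM in KO-labelled rTreg against 225.1 in WT rTreg, and 302 CPM in KO-labelled aTreg against 257.6 in WT aTreg. Its log2 fold change was 0.33 (edgeR adjusted p = 0.00152, but 0.0705 with genotype alone).

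Levels of each immunoproteasome gene and its constitutive counterpart are compared here per kilobase of exon. On that scale Psmb8 exceeded Psmb5 by a ratio of 3.52 in KO-labelled rTreg against 2.10 in WT rTreg, and of 3.32 in KO-labelled aTreg against 2.50 in WT aTreg. The ratio of Psmb9 over Psmb6 was 1.996 in KO-labelled rTreg against 1.15 in WT rTreg, and 1.89 in KO-labelled aTreg against 1.39 in WT aTreg. For Psmb10 over Psmb7 it was 3.31 in KO-labelled rTreg against 2.41 in WT rTreg, and 3.09 in KO-labelled aTreg against 2.85 in WT aTreg. Every ratio was higher in the KO-labelled library of its state. These ratios rest on single libraries and were not tested. Their absolute size is uncertain, because much of the Psmb5 sequence is shared, Psmb9 overlaps Tap1 and lengths count all annotated exons.

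**Figure D3:**
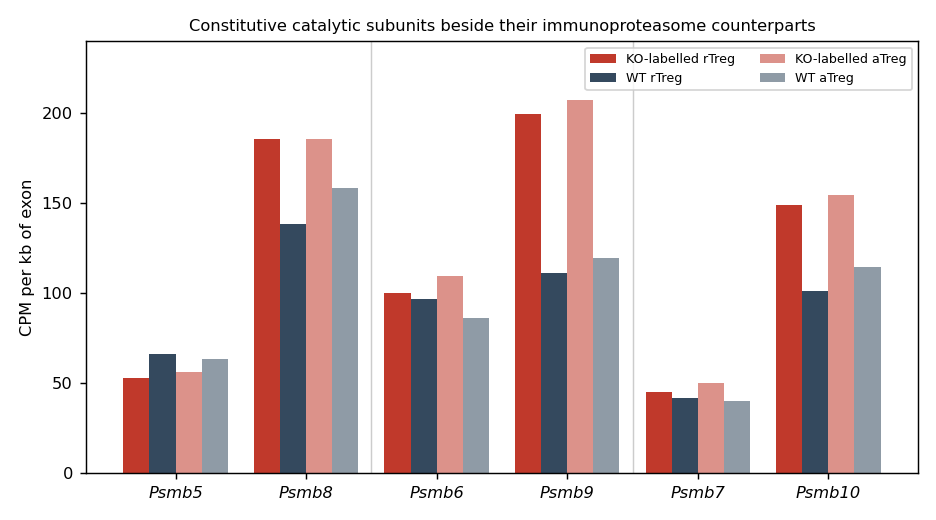
CPM per kilobase of exon of Psmb5, Psmb6 and Psmb7, each left of the immunoproteasome gene that can take its place (Psmb8, Psmb9, Psmb10), in KO-labelled rTreg, WT rTreg, KO-labelled aTreg and WT aTreg; each bar is 1 library. Immuno genes are plotted above their constitutive partners in every library, with the limits of shared sequence and overlap given in the text, and Psmb5 is lower in the KO-labelled libraries of both states.

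Of the 17 genes of the 19S cap under the name rule, 16 rose and none fell (median log2 fold change 0.38). Adrm1 and Sem1, cap genes with other names, are outside the rule and were not called. Their log2 fold changes were 0.07 (edgeR adjusted p = 0.396) and −0.002 (edgeR adjusted p = 0.985). DESeq2 called 10 of the 17 higher and edgeR with genotype alone 9. The 6 ATPase genes moved within a narrow range, from 0.25 (Psmc2) to 0.40 (Psmc1) on the log2 scale, and all 6 rose, against 3 with each of those models. Psmc1 had 103 CPM in KO-labelled rTreg against 84.7 CPM in WT rTreg, and 111 CPM in KO-labelled aTreg against 77.9 CPM in WT aTreg. Psmc2 had 93.4 CPM in KO-labelled rTreg against 84.2 CPM in WT rTreg, and 104 CPM in KO-labelled aTreg against 81.7 CPM in WT aTreg (edgeR adjusted p = 0.0145, but 0.121 with genotype alone and 0.172 with DESeq2). For both, the WT libraries lay below the KO-labelled ones.

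The non-ATPase base was uneven. Psmd1, the large scaffold Rpn2 (chromosome 1, 86064387 to 86139151, plus strand), had 111 CPM in KO-labelled rTreg against 66.1 CPM in WT rTreg, and 98.7 CPM in KO-labelled aTreg against 62.7 CPM in WT aTreg (log2 fold change 0.70, SE 0.0715, edgeR adjusted p = 6.59e-06). That was the second largest change of all members. Psmd2, the scaffold Rpn1, rose by less, with a log2 fold change of 0.25. Psmd4, the ubiquitin receptor Rpn10, was not called. It had 141 CPM in KO-labelled rTreg against 131 CPM in WT rTreg, and 154.5 CPM in KO-labelled aTreg against 136 CPM in WT aTreg (log2 fold change 0.14, SE 0.0647, edgeR adjusted p = 0.0828).

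All 8 lid genes that the name rule took in, without Sem1, rose (median log2 fold change 0.44). DESeq2 called 6 of these 8 higher and edgeR with genotype alone 5. Their summed level was 856 CPM in KO-labelled rTreg against 636 CPM in WT rTreg, and 846 CPM in KO-labelled aTreg against 624 CPM in WT aTreg. Psmd13 (Rpn9) led the lid, with 110.4 CPM in KO-labelled rTreg against 76.6 CPM in WT rTreg, and 122 CPM in KO-labelled aTreg against 76.6 CPM in WT aTreg (log2 fold change 0.60, SE 0.0713, edgeR adjusted p = 2.15e-05). Its exons overlap Sirt3 on the opposite strand. Psmd14 (Rpn11), the enzyme that removes ubiquitin chains from substrates, had 100.4 CPM in KO-labelled rTreg against 69.0 CPM in WT rTreg, and 85.1 CPM in KO-labelled aTreg against 66.8 CPM in WT aTreg (edgeR adjusted p = 0.000391, but 0.0501 with genotype alone). Psmd11 (Rpn6), which clamps the lid to the core, changed least of the 8. It had 78.1 CPM in KO-labelled rTreg against 65.2 in WT rTreg, and 71.2 CPM in KO-labelled aTreg against 61.6 in WT aTreg. Its log2 fold change was 0.23 (SE 0.0743, edgeR adjusted p = 0.0201). The adjusted p was 0.0505 with upper-quartile scaling in edgeR, 0.145 with genotype alone in edgeR and 0.235 with DESeq2.

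Of the base assembly chaperones, which help to build the ATPase ring and leave before the cap is complete, neither tested gene was called. Psmd9 had 21.9 CPM in KO-labelled rTreg against 21.0 CPM in WT rTreg, and 21.4 CPM in KO-labelled aTreg against 22.2 CPM in WT aTreg (log2 fold change 0.00, SE 0.119, edgeR adjusted p = 0.981). Psmd5 had 39.8 CPM in KO-labelled rTreg against 36.7 CPM in WT rTreg, and 33.5 CPM in KO-labelled aTreg against 37.9 CPM in WT aTreg (log2 fold change −0.03, SE 0.102, edgeR adjusted p = 0.831). Their genotype groups overlapped, and the sign of Psmd9 turned with other scalings. Per kilobase they were also among the least abundant members, at 7.61 to 9.05 CPM per kilobase for Psmd5. The third chaperone, Psmd10 (gankyrin), had 10 and 6 counts in KO-labelled rTreg and aTreg against 15 and 10 counts in WT rTreg and aTreg, too few to test.

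Among the activators, the interferon-inducible PA28αβ genes rose, PA200 rose in the additive edgeR test but not with DESeq2 or with genotype alone, and PA28γ was not called. Psme1 (PA28α; chromosome 14, 55578123 to 55581529, plus strand) was at 393 CPM in KO-labelled rTreg against 256 CPM in WT rTreg, and at 384 CPM in KO-labelled aTreg against 260 CPM in WT aTreg. The log2 fold change was 0.59 (SE 0.0625, edgeR adjusted p = 8.92e-06), and the groups did not overlap. Psme2 (PA28β; chromosome 14, 55587441 to 55591113, minus strand) had 197 CPM in KO-labelled rTreg against 122 CPM in WT rTreg, and 201 CPM in KO-labelled aTreg against 134.5 CPM in WT aTreg (log2 fold change 0.64, SE 0.0651, edgeR adjusted p = 6.64e-06). These 2 genes lie within a short stretch of chromosome 14, and their log2 ratios in rTreg and in aTreg were 0.62 and 0.56 for Psme1 and 0.70 and 0.58 for Psme2. Of the 50-base stretches of Psme2, 59.3% are shared with other transcripts, mostly with its copy Psme2b, which itself had only 12 and 8 counts in KO-labelled rTreg and aTreg against 20 and 24 counts in WT rTreg and aTreg.

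Psme4 (PA200), a single-chain cap, had 98.7 CPM in KO-labelled rTreg against 83.6 CPM in WT rTreg, and 92.7 CPM in KO-labelled aTreg against 77.5 CPM in WT aTreg (log2 fold change 0.25, SE 0.0693, edgeR adjusted p = 0.0101, but 0.116 with genotype alone and 0.160 with DESeq2). Psme3, the nuclear PA28γ, was not called, with 157 CPM in KO-labelled rTreg against 146 CPM in WT rTreg, and 154 CPM in KO-labelled aTreg against 145 CPM in WT aTreg (log2 fold change 0.10, SE 0.0632, edgeR adjusted p = 0.211). Its binding partner Psme3ip1, which the rule took in by name, was not called (log2 fold change 0.13, edgeR adjusted p = 0.232).

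The tissue-restricted core genes had few counts and were below the minimum level for the test. Psma8, the testis α subunit, had 1 and 0 counts in KO-labelled rTreg and aTreg against 8 and 2 counts in WT rTreg and aTreg. Psmb11, the catalytic subunit of the thymus cortex, had 14 and 10 counts in KO-labelled rTreg and aTreg against 20 and 22 counts in WT rTreg and aTreg. A count of 0 allows up to 3 counts, which is 0.143 to 0.170 CPM in these libraries. Psmc3ip, no proteasome gene, had 92 and 98 counts in KO-labelled rTreg and aTreg against 58 and 48 counts in WT rTreg and aTreg, and was below the minimum level for the test.

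Between states no member changed by the test, and the ratios were small. Not 1 of the 38 was called for aTreg over rTreg by edgeR, which called 13.2% of all tested genes (7.87% higher, 5.3% lower). DESeq2 with the same terms also called 0 of them. Its share over all tested genes is not given, so that 0 is not read against a background. At an unadjusted p under 0.05 the edgeR test counted 1 member, Psma2, beside 26.6% of all tested genes. Psma2 was at 162 CPM in KO-labelled aTreg against 183 CPM in KO-labelled rTreg, and at 107 CPM in WT aTreg against 117 CPM in WT rTreg (edgeR adjusted p = 0.153). In the KO-labelled pair of libraries, 0 members were 0.3219 log2 units apart in either direction, beside 9.41% of all tested genes higher and 7.06% lower in aTreg. In the WT pair it was again 0, beside 10.7% higher and 8.7% lower. The log2 ratios of aTreg over rTreg ran from −0.25 to 0.16 in the KO-labelled pair and from −0.17 to 0.15 in the WT pair. The median half-width of a counting interval was 0.0916 on the log2 scale in the KO-labelled pair and 0.0997 in the WT pair. Across members the state ratios of the genotypes correlated at only r = 0.0933, beside 0.651 across all tested genes.

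**Figure D4:**
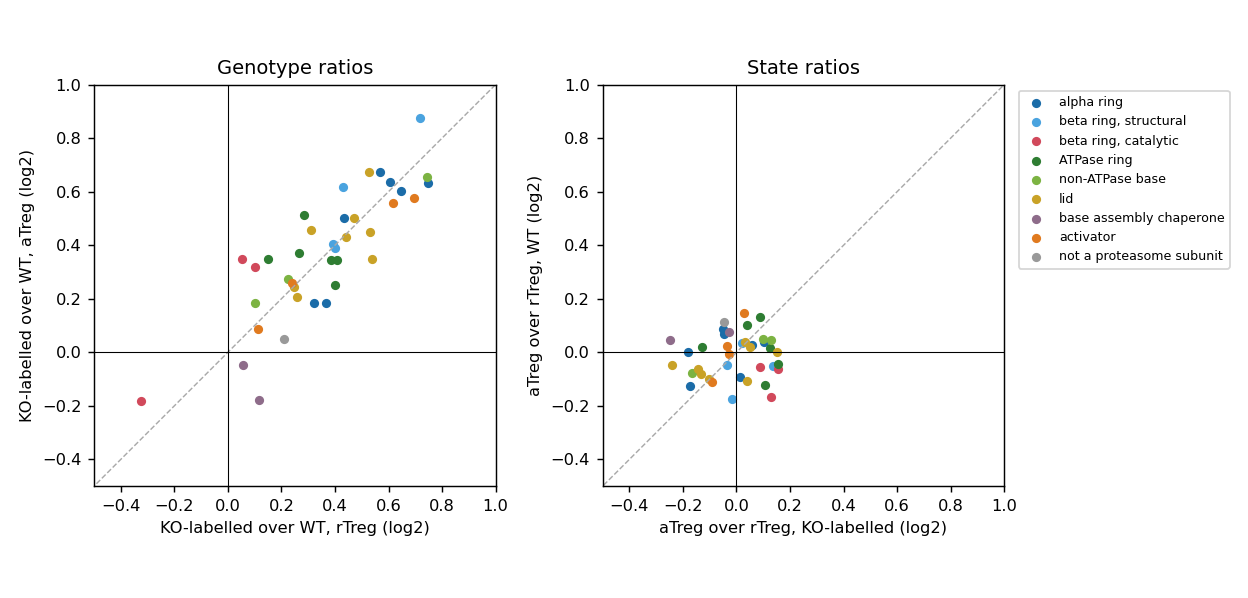
Log2 ratios of CPM for the 38 tested members, coloured by class; left, KO-labelled over WT in rTreg (x) and in aTreg (y); right, aTreg over rTreg in the KO-labelled pair (x) and in the WT pair (y), on the same scale, with equality as a dashed line. Genotype ratios spread along the diagonal up to 0.87, while state ratios stay between −0.25 and 0.16.

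A few members had genotype ratios that differed between states, which cannot be tested with 1 library per group. The difference of the log2 ratios, aTreg minus rTreg, had a median of −0.01 over the 38 members. It was highest for Psmb6 (0.30), Psmc1 (0.23) and Psmb7 (0.22). At the other end were Psmd5 (−0.30), Psmd14 (−0.19) and Psma3 (−0.18). Psma3 had 86.1 CPM in KO-labelled rTreg against 66.9 CPM in WT rTreg, and 76.0 CPM in KO-labelled aTreg against 66.8 CPM in WT aTreg. The catalytic class had the highest class median of this difference (0.22), and the base chaperones the lowest (−0.20).

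Absolute levels of the members differ far more than their ratios. Per kilobase of exon Psme1 was the highest member, with 354 CPM per kilobase in KO-labelled rTreg against 230 in WT rTreg, and 345 in KO-labelled aTreg against 234 in WT aTreg. Within the core the highest was Psmb3, with 173 CPM per kilobase in KO-labelled rTreg against 128 in WT rTreg, and 190 in KO-labelled aTreg against 124 in WT aTreg. Psma3 was lowest of the core, with 30.3 in KO-labelled rTreg against 23.5 in WT rTreg, and 26.7 in KO-labelled aTreg against 23.5 in WT aTreg. Exonic lengths here sum all annotated exons of a gene, so a gene with long rare isoforms comes out low.

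In 4 further lists of the pathway (assembly factors, partners and regulators, shuttles and p97 cofactors, ubiquitin and its activating enzymes) the share of genes called, between 33.3% and 45.5% of a list, was below the 47.4% of all tested genes, so their counts are near the background. Of 5 tested assembly factors of the core, 2 rose and none fell. Pomp, which matures the core, had 103 CPM in KO-labelled rTreg against 74.8 CPM in WT rTreg, and 108 CPM in KO-labelled aTreg against 75.5 CPM in WT aTreg (log2 fold change 0.49, edgeR adjusted p = 9.55e-05), and Psmg1, an α ring chaperone, was not called (log2 fold change −0.07). Of 13 partners and regulators, 4 rose and 1 fell. Uchl5, a deubiquitinase of the cap, had a log2 fold change of 0.68 (edgeR adjusted p = 0.000228). Ddi2, the protease that cuts NRF1 into its active form, fell to 89.0 CPM in KO-labelled rTreg, against 112 CPM in WT rTreg, and to 96.1 CPM in KO-labelled aTreg, against 110.3 CPM in WT aTreg (log2 fold change −0.26, edgeR adjusted p = 0.00744). Nfe2l1 itself, named after its value was seen, was not called (log2 fold change −0.17, edgeR adjusted p = 0.0588).

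Of 11 ubiquitin shuttles and p97 cofactors, 4 rose and 1 fell. The shuttle Rad23b led with a log2 fold change of 0.38, and the p97 cofactor Nsfl1c was lowest with −0.35. Of 6 genes for ubiquitin and its activating enzymes, 1 rose (Uba1, 0.33) and 1 fell (Rps27a, a ubiquitin fused to a ribosomal protein, −0.35).

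Genes that move with the interferon response and with division were also higher in the KO-labelled libraries, and their part in the subunit result was not tested. Of 18 class I presentation and interferon-γ response genes 17 rose, beside 24.5% of all tested genes called higher, with a median log2 fold change of 0.88, led by the immunity-related GTPase Iigp1 at 1.99, while Nlrc5 was not called (0.14). All 20 cell cycle genes rose (median 1.51, from Pcna at 0.50 to Birc5 at 2.13), with a summed level of 3098 CPM in KO-labelled rTreg against 1342 CPM in WT rTreg, and 2906 CPM in KO-labelled aTreg against 1009 CPM in WT aTreg. Among 12 tested immediate early and heat shock genes 8 fell, beside 22.9% of all tested genes called lower. Of other large complexes, 46 of 94 oxidative phosphorylation genes rose and 7 fell (median 0.22), and 5 of 88 cytosolic ribosomal protein genes rose and 50 fell (median −0.27).

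Markers of other cells were low in every library, and their part in the subunit result was not tested. T cell and Treg markers summed to 3430 CPM and 3429 CPM in KO-labelled rTreg and aTreg, against 3071 CPM and 3368 CPM in WT rTreg and aTreg. Of these 6 markers 1, Il2ra, rose (log2 fold change 0.43, edgeR adjusted p = 0.000227) and 5 were not called. Of all tested genes, 24.5% were called higher. Over 7 myeloid markers the sum was 6.64 and 3.89 CPM in KO-labelled rTreg and aTreg against 1.72 and 1.70 CPM in WT rTreg and aTreg, with S100a8 and S100a9 at 0 in WT rTreg and Adgre1 at 0 in KO-labelled aTreg. The 4 globin genes summed to 9.99 and 10.8 CPM in KO-labelled rTreg and aTreg against 0.238 and 0.971 CPM in WT rTreg and aTreg, with Hba-a2, Hbb-bs and Hbb-bt at 0 in WT rTreg. The 7 B and plasma cell markers summed to between 13.2 and 20.04 CPM, with Ms4a1 at 0 in KO-labelled aTreg, and the 4 CD8 and NK cell markers to between 10.3 and 13.6 CPM.

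How many members count as changed depends on the model. DESeq2 with the same terms called 21 members higher, beside 14.2% of all tested genes, and edgeR with genotype alone, in which the states stand in for replicates, called 20, beside 9.71%. The authors' deposited table gives an adjusted p for 41 members, of which 21 were higher in KO-labelled libraries, beside 9.61% of its 12398 genes with one, and 0 were lower. Its log2 fold change, which runs from KO to WT so that a positive value means higher in WT, was 0.25 for Psmb5 in the authors' deposited table (adjusted p = 0.299). Reads of 10 tested members may mix with those of a gene whose exons overlap (Psma4, Psmb7, Psmd1, Psmd13 and Psme1 among them), and 7 (Psma3, Psma4, Psma5, Psmb3, Psmb5, Psmd2 and Psme2) share at least 20% of their 50-base stretches with other transcripts. Among the 24 tested members with neither limit, 19 rose and none fell.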

How the data were processed

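Libraries were prepared with a SMARTer kit from TRIzol-extracted RNA, per the labels' protocols. The submitters' processing notes name HISAT2 2.2.1 for alignment, featureCounts 2.0.1 for counting and the build GRCm38. Neither the annotation nor the strand setting is stated, so overlapping genes cannot be separated. The deposited counts are whole reads per gene symbol, with no normalization by the authors. The authors also deposited variance-stabilised values on a log2-like scale and a log2 fold change with its error. Beside these, per the file headers, stand a mean signal (scaled counts, never below 0) and a test score. The deposited p-values, raw and adjusted, belong to the authors' comparison of genotypes.

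Counts were scaled by TMM in edgeR 4.0.16 (R 4.3.3), with factors of 0.995 to 1.006, and log2 CPM used a prior count of 2. The genes that averaged 5 CPM or more were tested with edgeR's quasi-likelihood test on genotype and state as additive terms, at an adjusted p of 0.05 over all 9680 genes. This leaves 1 residual degree of freedom, with a prior weight of 11.8. The test was also run on simulated counts with known genotype changes, a spread like that of the additive fit and no state effect. That run cannot show how the test holds under the spread between mice. Single contrasts have no replicate and carry exact binomial intervals (95%), which cover counting error only. DESeq2 1.42.0 was an alternative, beside other scalings, filters and models. Gene positions, exon lengths and shared 50-base stretches came from GENCODE vM21 on GRCm38, and promoters from RefSeq.

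The members and lists were chosen with earlier results of these data known. Values in every library were given for the catalytic, activator and immunoproteasome genes, for the highest and lowest member of each class, for the 3 members per direction whose genotype ratio differed most between states, and for members below the level minimum. Of each further list the highest and lowest genes were named, and other genes were added after their values were seen. Psma5-ps, Psmb6-ps and Psmb6-ps2 were left out. None of the 3 reached the level minimum.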

Additional observations from a re-analysis of the deposited data

Results flagged for a closer look

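In Psmb6 the log2 ratio of aTreg over rTreg was 0.13 in the KO-labelled pair (95% counting interval 0.03 to 0.23) and −0.17 in the WT pair (−0.27 to −0.06). Psmc1 had 0.11 in the KO-labelled pair (0.02 to 0.20) and −0.12 in the WT pair (−0.22 to −0.02). Both genes were picked out because their libraries moved in opposite directions between states with intervals clear of 0. With 1 library per group, the difference was not tested.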

How the results depend on the processing

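The 30 members called higher by genotype stayed between 29 and 31 under 3 other scalings and 2 other filters, and came to 20 with genotype alone and 21 with DESeq2. Among members with little shared sequence and no exon overlap, a restriction chosen after seeing the data, 19 were higher. The 1 member called lower, Psmb5, became 0 with no filter, with genotype alone, with DESeq2 and under that restriction, which leaves Psmb5 out. At 1.5-fold as the limit for single contrasts, 7 members were higher and 0 lower in rTreg and 8 were higher in aTreg. No share of all tested genes stands beside these counts at that limit, so they are not read against a background. Between the authors' variance-stabilised values, a comparison added after seeing the data, 0 were counted as lower in rTreg. That count also has no share of all genes beside it and is not read against a background. By CPM, Psmb5 had a log2 ratio of −0.32 in rTreg. Why the models differ was not tested. The biological coefficient of variation was 6.66% with state in the model and 13.7% without it. Median genotype ratios ran from 0.33 to 0.39 in rTreg and from 0.32 to 0.37 in aTreg over all settings. No named gene turned its direction past the test. Psma3, Psma6, Psmc2, Psmd11 and Psme4 lost their call with genotype alone and with DESeq2, and Psmd14 and Psmb8 lost it with genotype alone. Upper-quartile scaling moved the share of higher among all called genes to 43.4%, against 51.6% with TMM. No paired analysis was possible because the labels carry no replicate numbers and each group has 1 library. Leaving out a library gives no test, since the additive fit on 3 libraries has no residual degrees of freedom.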
